A study of Arabidopsis thaliana with 30 samples.

Results

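MIM156 is an Arabidopsis line in which the 35S promoter drives a target mimic of miR156, an RNA that binds the microRNA without being cut and so takes it away from its targets. What 27 °C did to the transcriptome of MIM156 seedlings is described here from the 6 MIM156 libraries of a series of 30, 3 from seedlings kept at 21 °C and 3 from seedlings moved to 27 °C. Of the 25300 genes in the table, the 21780 that reached 1 CPM (1 read per 1000000 reads in genes) in at least 3 libraries were taken. The seedlings were whole, 4 days old and grown in continuous red light, the warm ones for the first 2 days at 21 °C and for the last 2 at 27 °C. The study used the line to ask whether miR156 is needed for the growth response to warmth. For comparison the text uses Col-0, the wild type in whose background MIM156 stands, and pif457, a triple mutant of the PHYTOCHROME INTERACTING FACTOR genes PIF4, PIF5 and PIF7, each with 3 libraries at 21 °C and 3 at 27 °C under the same conditions. For a few genes, values are also given from hyl1-2, a mutant of the microRNA-processing protein HYL1. The same holds for dcl1-24/hyl1-2, which carries a dominant allele of DCL1 in hyl1-2. These genotypes, also at 21 and 27 °C, enter no comparison tested here. MIM156 is a single transgenic line, and the 35S promoter is active in most plant tissues.

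Warmth well below heat stress makes Arabidopsis seedlings elongate their hypocotyls. PIF4 and PIF7, basic helix-loop-helix factors held back by the red-light and temperature sensor phytochrome B, raise auxin synthesis genes of the YUCCA family, and auxin then acts on growth genes such as the SAUR and Aux/IAA families. miR156 is the microRNA that keeps plants juvenile: it cuts and represses mRNAs of the SPL family of transcription factors (from SQUAMOSA PROMOTER BINDING PROTEIN-LIKE), which rise with age as miR156 falls. A mimic of miR156 therefore frees the SPL mRNAs that carry its site.

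The sequences of the microRNA and of its sites are shown here because they separate the SPL genes that the mimic can free from those it cannot. RefSeq (TAIR10.1) holds 10 mature miR156 sequences of 20 bases, 6 of them identical, and all share 1 seed, bases 2 to 8, given in capitals.
miR156a to miR156f: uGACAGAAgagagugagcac
miR156g: cGACAGAAgagagugagcac
miR156h: uGACAGAAgaaagagagcac
miR156i: uGACAGAAgagagagagcag
miR156j: uGACAGAAgagagagagcac
A site with at most 3 mismatches to the commonest form was found in the transcripts of 11 of 11 SPL genes on the target list and in 0 of 6 SPL genes on the list without a site. Below, each site is given 5′ to 3′ with mismatches in capitals. The site of SPL3 is at chr2:14305878-14305897 on the plus strand, that of SPL4 at chr1:19807090-19807109 on the plus strand, that of SPL5 at chr3:5140598-5140617 on the minus strand, all in 3′ UTRs, and that of SPL9 at chr2:17589066-17589085 on the plus strand, in coding sequence.
SPL3: UugcuUacucucuucuguca
SPL4: CugcucUcucucuucuguca
SPL5: CCgcucUcucucuucuguca
SPL9: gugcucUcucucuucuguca
The 7 other targets, SPL2, SPL6, SPL10, SPL11, SPL13A, SPL13B and SPL15, carry the SPL9 site in their coding sequences. RefSeq places miR156i on the strand opposite the SPL4 site and miR156j on the strand opposite the SPL9 site, at the same coordinates.

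The libraries held 18416131 to 27081159 reads in genes, and those of MIM156 held 18854790, 23247864 and 21379893 at 21 °C and 19167247, 19412144 and 20115890 at 27 °C. IPS1, the noncoding RNA on which the mimic is built, took 4.43 ± 1.23% (SD, n = 3) of the reads of MIM156 at 21 °C and 4.57 ± 0.58% at 27 °C, and at most 2.9e-05% in Col-0 and pif457, which fits the labels of all these libraries. MIM156 21 °C replicate 3 stood apart: its ratio of median-of-ratios scaling factor to read total was 0.81, where the other 5 MIM156 libraries had 0.943 to 1.24, and it had the largest share of IPS1, 5.73%. The 50 genes with the most reads took 31.6% of the reads of MIM156 at 21 °C and 20.8% at 27 °C, so that other genes gained CPM at 27 °C. Every change below is therefore a log2 change, with its standard error, relative to that of the median gene (0.36 with the deposited totals), from limma on log2(CPM + 0.5). A gene is said to have risen or fallen only if its Benjamini-Hochberg adjusted p was at most 0.05 in the same direction both with the deposited totals and with median-of-ratios scaling. Adjusted p-values given are those with the deposited totals over all 21780 genes. They test the change before that of the median gene was subtracted. In MIM156 they are therefore smaller for rises, and larger for falls, than the printed relative change and its standard error would give.

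Warmth raised 1867 genes in MIM156 (8.57% of those tested) and lowered 770 (3.54%), of which 384 and 414 changed at least 2-fold. The counts of risen and fallen list members below are to be read beside these shares of 8.57% and 3.54%. With the deposited totals alone 7454 genes were higher and 772 lower, so that 90.6% of the calls were higher, and with median-of-ratios scaling alone 1867 were higher and 2123 lower, 46.8% higher. All 3 libraries at 27 °C lay above all 3 at 21 °C in CPM in 9401 genes (43.2%) and below them in 1202 (5.5%). Leaving out MIM156 21 °C replicate 3 left 1120 genes higher, and leaving out MIM156 27 °C replicate 1 left 1214. Of the genes that rose, 696 also rose with warmth in Col-0 (37.3% of 1867 and 37.4% of the 1860 that rose there, 8.54% of those tested), and of those that fell, 379 also fell in Col-0 (49.2% of 770 and 37.6% of 1008, 4.63% of those tested). In pif457, 617 of the rising genes (33% and 37.9% of that line's 1626) and 390 of the falling ones (50.6% and 23.4% of 1667) did so too, where 7.47% and 7.65% of genes rose and fell. In whole seedlings, fewer cells of a type and less RNA per cell cannot be told apart.

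Among the SPL genes with a miR156 site, SPL3 rose with warmth and the other 9 tested did not pass the test in either direction; the list's median change was 0.13. SPL3, whose product acts mainly in floral meristem identity in the study's account, lies on chromosome 2 at 14305001 to 14306072. It measured 61.1, 47.6 and 46.7 CPM at 21 °C and 236, 203 and 227 CPM at 27 °C. Every library at 27 °C was thus far above every library at 21 °C, a rise of 1.74 ± 0.28 on the log2 scale (limma adjusted p = 3.56e-06). The comparison lines were far lower. SPL3 went from a mean of 0.982 CPM at 21 °C to 1.97 CPM at 27 °C in Col-0 (0.55, not past the test) and rose from 0.998 to 2.54 CPM in pif457 (1.02 ± 0.28, adjusted p = 0.011 by limma). The SPL3 change in MIM156 exceeded that in Col-0 by 1.19 and that in pif457 by 0.71, and neither difference passed the test. An RNA of unannotated function, AT2G33815, is placed by RefSeq on the opposite strand at 14305008 to 14306053, inside SPL3, and it had nearly the same counts in all 30 libraries. The sources used here do not say whether the counting used strand, so the reads of the pair cannot be told apart.

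SPL9, which with SPL15 acts in leaf initiation and the change from juvenile to adult leaves, measured 13.1, 14.7 and 11.4 CPM at 21 °C and 16.3, 18.18 and 16.4 CPM at 27 °C. Its change of 0.01 ± 0.21 was that of the median gene, although the CPM ranges did not overlap. SPL2 measured 67.6, 69.6 and 53.2 CPM at 21 °C and 95.6, 97.4 and 92.8 CPM at 27 °C (0.24). SPL13A measured 21, 17.7 and 17.9 CPM against 36.1, 28 and 34.1 CPM (0.42). The libraries at 27 °C were above those at 21 °C in both genes, but not beyond the shift of the median gene by the test. SPL10, at 41.3, 35 and 33.2 CPM against 45, 48.2 and 45.8 CPM, changed by -0.01. SPL11 changed by -0.20, SPL6 by 0.27 and SPL15 by 0.08. SPL4 and SPL5, which the study groups with SPL3, were at 0.795 to 2.28 and 1.59 to 4.44 CPM at 21 °C and at 1.1 to 3.04 and 1.65 to 2.34 CPM at 27 °C, with overlapping groups. SPL13B, nearly identical in sequence to SPL13A, stayed at 0.0468 to 1.09 CPM and did not enter the test. Against Col-0 the targets were already high at 21 °C: the mean of Col-0 was 0.98 CPM for SPL3, 1.76 CPM for SPL9, 18.9 CPM for SPL2, 9.20 CPM for SPL10 and 0.917 CPM for SPL15. Of the 6 SPL genes without a site, which had a median change of 0.10, SPL16 rose (15.8, 15.1 and 8.42 CPM to 25.8, 24 and 25 CPM; 0.60 ± 0.21, adjusted p = 0.00102 by limma), a call lost without 21 °C replicate 3 (0.39), 27 °C replicate 1 (0.61), 27 °C replicate 2 (0.60) or 27 °C replicate 3 (0.58).

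**Figure D1:**
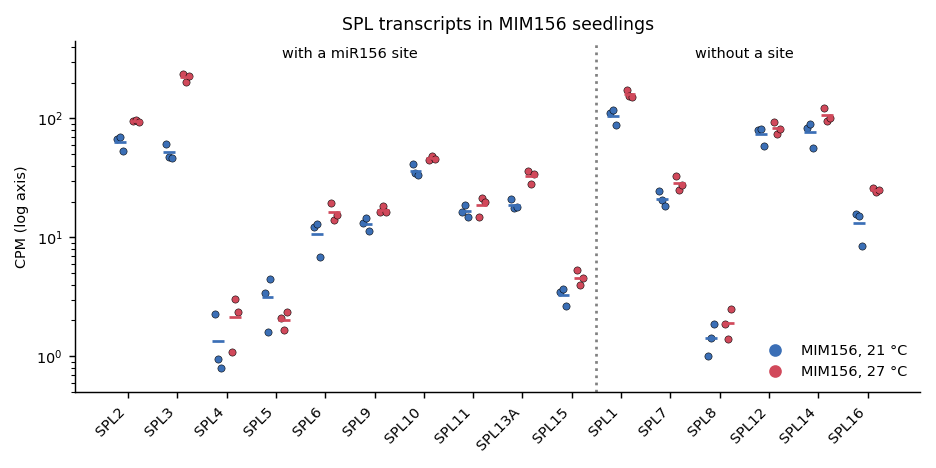
Level of each tested SPL gene in MIM156, in CPM on a log axis, at 21 and 27 °C; each point is a library and each line the mean of 3. The 10 genes with a miR156 site and the 6 without are drawn apart; SPL3 goes from 46.7 to 61.1 CPM up to 203 to 236 CPM, while SPL9 and SPL10 shift little.

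The largest rise, among genes without overlap whose warm mean was 5 CPM or more, was that of AT4G19430, an uncharacterized protein gene at 10598371 to 10599182 on the minus strand of chromosome 4. It was at 5.52, 4.43 and 5.85 CPM at 21 °C and at 122, 113 and 101 CPM at 27 °C, a change of 3.93 ± 0.24 (limma adjusted p = 3.51e-13). In Col-0 it was at 0 CPM in 3 of 3 libraries at 21 °C and at 0.125, 0 and 0.139 CPM at 27 °C, in pif457 at 0 to 0.133 CPM, and in hyl1-2, a mutant of the microRNA-processing protein HYL1, at 0 CPM at 21 °C and 3.32, 1.46 and 1.53 CPM at 27 °C. All 6 MIM156 libraries were thus above all libraries of Col-0, pif457 and hyl1-2. In these libraries 0.111 to 0.163 CPM stand for 3 reads, so the Col-0 and pif457 values are at that limit. AT2G07213, an RNA of unannotated function that overlaps AT2G07215, went from 0.371, 0.258 and 0.327 CPM to 6.99, 4.17 and 4.18 CPM (2.39).

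**Figure D2:**
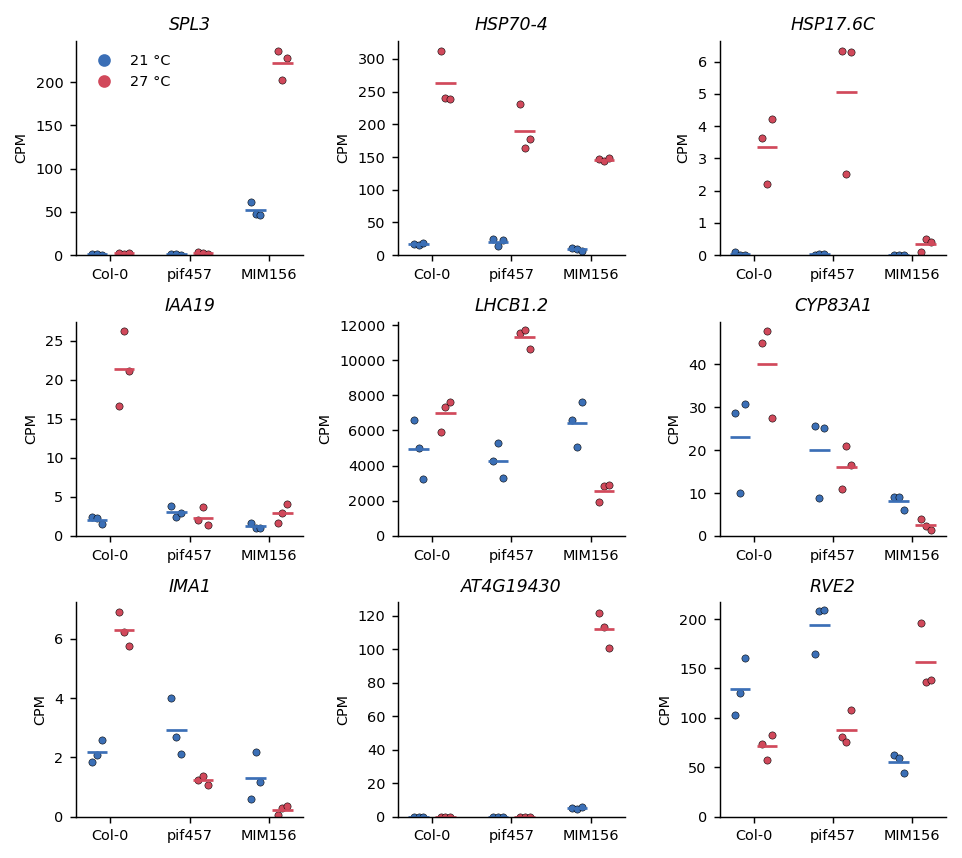
Levels in CPM at 21 and 27 °C of 9 genes in Col-0, pif457 and MIM156; points are libraries and lines are means of 3. HSP70-4 goes up in the 3 genotypes, AT4G19430 and SPL3 reach high levels in MIM156, and RVE2 goes up in MIM156 and down in the other 2.

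Heat response genes rose in MIM156 at 27 °C. These encode the chaperones, and the heat shock factors that drive them, by which plants keep proteins folded. Of 28 tested members 14 rose and 0 fell, with a median change of 0.84, and 14 or 15 rose when any MIM156 library was left out. HSP90-1, a cytosolic HSP90 that is low without stress, was at 4.83, 2.37 and 1.22 CPM at 21 °C and 55.1, 46.3 and 51.4 CPM at 27 °C (3.76 ± 0.25, adjusted p = 5.31e-12 by limma). HSP70-4, a cytosolic HSP70, went from 10.4, 9.72 and 6.22 CPM to 147, 144 and 148 CPM (3.66 ± 0.20, limma adjusted p = 3.18e-14). In both genes every library at 27 °C lay far above every library at 21 °C. HSP23.5, a mitochondrial small chaperone, went from 0.371, 0.344 and 0.936 CPM to 8.71, 8.29 and 11.3 CPM (2.92). HOP3, which links HSP70 with HSP90, went from 3.61, 3.57 and 1.64 CPM to 24.4, 22 and 23.9 CPM (2.50). HSP101, the disaggregase of acquired thermotolerance, rose from 8.49, 7.05 and 6.83 CPM to 24.3, 22.8 and 24.2 CPM (1.26). HSFA2, a heat-induced heat shock factor, rose by 1.5 from at most 0.743 CPM to 2.03, 2.78 and 2.09 CPM. The FKBP co-chaperone ROF2 (1.88), the coactivator MBF1C (1.40) and the factors HSFA3 (1.26), HSFB2A (1.02) and HSFB2B (0.95) rose as well. In Col-0 18 and in pif457 21 members of the list rose, and HSP70-4 changed by 3.63 and 3.2 there.

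Among the 14 members that did not pass the test were HSP17.6C and HSP17.6II, cytosolic small heat shock proteins. HSP17.6C was at 0 CPM in the 3 libraries at 21 °C and at 0.104, 0.515 and 0.398 CPM at 27 °C, at least 2.38-fold higher by the mean against a floor of 3 reads per library, and the change did not pass the test. In Col-0 HSP17.6C went from 0.093, 0 and 0 CPM to 3.63, 2.21 and 4.22 CPM and in pif457 from at most 0.0479 CPM to 6.33, 2.52 and 6.31 CPM. HSP17.6II was at 0 CPM at 21 °C and at 0, 0.155 and 0 CPM at 27 °C in MIM156, against 3.88, 2.3 and 2.36 CPM at 27 °C in Col-0 and 4.43, 1.57 and 4.06 CPM in pif457. The warm libraries of MIM156 were thus below every warm library of Col-0 and pif457 for both genes. As differences between log2 changes, HSP17.6C was at -2.20 ± 0.43 against Col-0 (limma adjusted p = 0.00789) and -2.93 ± 0.43 against pif457 (0.000428 by limma, adjusted), and HSP17.6II at -2.48 ± 0.45 and -3.07 ± 0.45. These 4 differences were not called by edgeR or DESeq2 on the recovered reads, and HSP17.6C against Col-0 was not called with a pseudocount of 0.1.

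Windows of 30 bases from promoters of these genes are shown because the heat shock element they hold is shared by genes of small heat shock proteins and of factors, of which HSFA2 rose. The element searched was GAANNTTCNNGAA or TTCNNGAANNTTC, on both strands, in the 250 bases before each RefSeq gene start; it is in 0.421% of 21615 promoters, in 5 of 28 on the heat list (17.9%) and in 0.536% of those of the genes that rose. The first window is at chr1:19980238-19980267 on the plus strand, the second at chr2:11135528-11135557 on the plus strand, the third at chr3:16984945-16984974 on the minus strand and the last at chr3:19264941-19264970 on the plus strand, and the element is in capitals.
HSP17.6C: caacaccaGAAACTTCTTGAAagcacctga
HSFA2: ttagtaacGAAGTTTCTGGAAcattgtctt
HSP17.4: tcaacataGAAGCTTCTTGAAgccacctga
HSFA7A: ttacgaagTTCCAGAAGTTTCgactattcg
Of the 5 list genes with the element, which include DREB2A, HSFA2 rose and the other 4 did not pass the test.

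Photosynthesis genes fell. The list of light-harvesting proteins, photosystem subunits, Rubisco small subunits and chlorophyll synthesis enzymes had 29 of 32 members lower at 27 °C and 0 higher (median -1.0), and 25 to 28 lower when any MIM156 library was left out. LHCB1.2, a light-harvesting protein of photosystem II, was at 6620, 5044 and 7599 CPM at 21 °C and 1951, 2856 and 2894 CPM at 27 °C (-1.68 ± 0.23, adjusted p = 0.000171 by limma). LHCB1.1 went from 5903, 5026 and 7617 CPM to 1617, 2442 and 2432 CPM (-1.87) and its near-identical relative LHCB1.3 changed by -1.58; reads of such copies can be assigned to one another, and LHCB1.3 overlaps NRPA2. The Rubisco small subunit gene RBCS1A went from 16930, 17090 and 21040 CPM to 11410, 11250 and 11230 CPM (-1.05). Protochlorophyllide oxidoreductases, which make chlorophyllide in light, changed unequally: PORA went from 46.6, 42.2 and 57 CPM to 23.9, 14.6 and 14 CPM (-1.84), PORB fell by 1.42 and PORC, at -0.35, did not pass the test. GUN4 (-0.58) and HEMA1 (-0.47), of early chlorophyll synthesis, did not pass it either. On the recovered reads edgeR and DESeq2 each called 32 of the 32 members lower, these genes included.

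Together the 32 genes took 13.8, 13.1 and 16.6% of all reads of MIM156 at 21 °C and 7.82, 8.87 and 8.76% at 27 °C, with no overlap. In Col-0 the share was 16.0 ± 1.58% (SD, n = 3) at 21 °C and 12.9 ± 1.15% at 27 °C, and in pif457 14.8 ± 1.5% and 17.03 ± 0.17%. Of the list, 10 members fell in Col-0, and 10 rose and 5 fell in pif457. The change in MIM156 was lower than in Col-0 for 5 members, none of which was called in Col-0, namely LHCB1.2 (difference of log2 changes -1.96 ± 0.33, limma adjusted p = 0.00331), LHCA4 (-1.37), LHCB3 (-1.36), LHCA1 (-1.30) and PORB (-1.14), where 0.579% of all tested genes were called lower. The LHCA4 difference was lost without Col-0 27 °C replicate 3 (-1.24) or MIM156 21 °C replicate 3 (-1.18), and fitting the compared groups alone lost LHCA4 and LHCB1.2. Against pif457, 23 members were lower (0.95% of all genes were), with a median difference of -1.44: LHCB1.2 was there at 4245, 5265 and 3300 CPM at 21 °C and 11550, 11710 and 10610 CPM at 27 °C, opposite to MIM156 (-3.10 ± 0.33, adjusted p = 1.33e-05 by limma), and LHB1B1 differed by -3.50 and LHCB2.2 by -2.98. Genes encoded in the chloroplast, whose transcripts are largely not polyadenylated and so enter poly-A libraries incompletely, made up 4.21, 6.86 and 2.47% of the reads of MIM156 at 21 °C and 1.14, 1.86 and 1.29% at 27 °C. ATCG00490 was at 423, 911 and 225 CPM and then at 54.1, 97 and 68 CPM (-2.99), and ATCG00340 (-2.94), ATCG00350 (-2.91) and ATCG00330 (-2.90) fell too; in Col-0 and pif457 the chloroplast share went from 4.28 to 2.26% and from 0.756 to 0.242%.

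**Figure D3:**
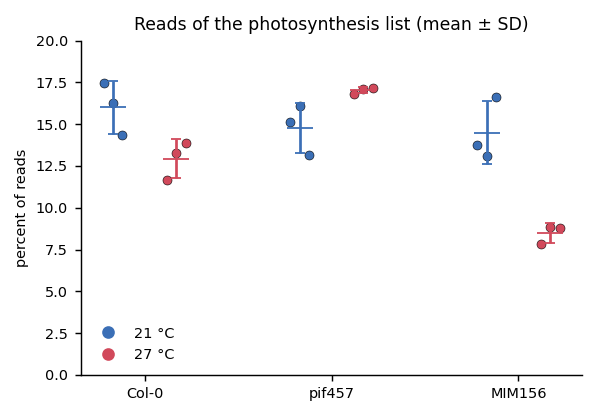
Share of all reads, in percent, in the 32 photosynthesis and chlorophyll genes at 21 and 27 °C in Col-0, pif457 and MIM156; points are libraries and bars the mean ± SD of 3. The share falls from 13.1 to 16.6% to 7.82 to 8.87% in MIM156.

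Auxin response genes rose in part. Of 26 tested SAUR genes, small auxin-induced proteins that promote cell expansion, 8 rose and 0 fell (median 0.57), where 13 rose in Col-0 and 4 in pif457; without 27 °C replicate 1, 5 rose. SAUR1 went from 0.902, 0.043 and 0 CPM to 4.43, 2.68 and 2.78 CPM (2.00 ± 0.42, limma adjusted p = 0.000114) and SAUR28 from 0.159, 0.043 and 0 CPM to 1.98, 1.29 and 0.895 CPM (1.35). SAUR29 (1.17), SAUR65 (1.0), SAUR10 (0.98) and SAUR50 (0.68) rose as well. SAUR26 (0.96) and SAUR20 (0.78) passed the test with all libraries. The SAUR26 call was lost without 21 °C replicate 1 (0.77), 21 °C replicate 2 (0.92), 27 °C replicate 1 (0.63) or 27 °C replicate 2 (1.08). That of SAUR20 was lost without 21 °C replicate 1 (0.71), 21 °C replicate 2 (0.65) or 27 °C replicate 1 (0.53). The neighbours SAUR19, SAUR21, SAUR22, SAUR23 and SAUR24 changed by 0.56, 0.59, 0.36, 0.51 and -0.04 and did not pass it, and as near-identical copies they can share reads. SAUR19, the best-known of them, was at 0.212, 0.043 and 0.234 CPM at 21 °C and 0.365, 1.03 and 0.944 CPM at 27 °C in MIM156, and at 0.511, 0.198 and 0.204 CPM and 5.09, 4.99 and 4.31 CPM in Col-0. Warm Col-0 was thus above warm MIM156 in each library, a difference in change of -1.91 that passed the test with all libraries but was lost in 8 of 12 fits without a library (-2.12 to -1.61) and in edgeR and DESeq2.

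Aux/IAA genes encode the repressors that auxin removes and whose transcription it raises, and 4 of 25 rose in MIM156 (median 0.24), against 11 in Col-0 and 3 in pif457. IAA20 went from 0.212, 0.172 and 0.0936 CPM to 1.98, 1.34 and 2.29 CPM (1.47 ± 0.32, adjusted p = 9.21e-05 by limma). IAA16 went from 112, 113 and 85 CPM to 188, 192 and 177 CPM (0.50). The calls of IAA7 and IAA4 were lost without some libraries: IAA7 (0.50) without 21 °C replicate 2 (0.44), 27 °C replicate 1 (0.48) or 27 °C replicate 3 (0.47), and IAA4 (0.44) in 5 of 6 such fits (0.40 to 0.51), so that 2 of the list rose without 21 °C replicate 2. IAA19 and IAA29 are the members most used as readouts of warmth and shade. IAA19 was at 1.7, 1.08 and 1.03 CPM at 21 °C and 1.72, 2.94 and 4.03 CPM at 27 °C in MIM156 (0.55, not past the test). In Col-0 IAA19 was at 2.37, 2.33 and 1.58 CPM and 16.7, 26.2 and 21.1 CPM (2.79), and in pif457 at 3.82, 2.39 and 2.89 CPM and 1.99, 3.66 and 1.37 CPM (-0.38). The difference between MIM156 and Col-0 was -2.25 ± 0.43 (limma adjusted p = 0.00568) and passed the test without any one library. IAA29 was at 0.43 to 0.743 CPM and then at 0.497 to 1.46 CPM in MIM156 and at 0.93 to 1.79 CPM and then at 7.56 to 12.4 CPM in Col-0 (difference -2.11 ± 0.41), a call that edgeR and a pseudocount of 0.1 did not make.

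Upstream of auxin, YUC8 and YUC9, flavin monooxygenases of the last step of auxin synthesis, rose in MIM156. YUC8 was at 2.86, 2.07 and 2.9 CPM at 21 °C and 6.99, 4.89 and 7.56 CPM at 27 °C (0.80). YUC9 was at 0.636, 0.559 and 0.0468 CPM and 2.3, 1.44 and 0.944 CPM (0.84). Their groups did not overlap, but the YUC8 call was lost without 21 °C replicate 2 (0.64), 27 °C replicate 1 (0.78) or 27 °C replicate 3 (0.68). The YUC9 call was lost without 21 °C replicate 3 (0.58) or 27 °C replicate 1 (0.63), so that 0 of 12 synthesis genes rose without 27 °C replicate 1. Among 14 transport genes ABCB19, an auxin exporter, rose from 135, 159 and 102 CPM to 268, 241 and 234 CPM (0.57). Among 16 receptor and ARF genes and 7 GH3 and inactivation genes 0 passed the test in limma, 0 had an unadjusted p under 0.05 with both scalings, and edgeR and DESeq2 each called 1 of the former lower. GH3.3, which conjugates auxin, was at 9.39, 10.9 and 8.84 CPM and then 7.88, 8.14 and 8 CPM in MIM156. In Col-0 GH3.3 went from 3.42 to 5.63 CPM up to 12.8 to 16 CPM, a difference of -1.83 that was lost without Col-0 21 °C replicate 2 (-1.66).

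PIF4 itself was at 19.9, 30.9 and 14.6 CPM at 21 °C and 35.2, 33.8 and 34.6 CPM at 27 °C in MIM156 (0.36, not past the test), and at 22.1, 40.4 and 20.5 CPM and 88.8, 112 and 79.1 CPM in Col-0 (1.52). The difference from Col-0, -1.16, did not pass the test. Of the 24 PIF and shade growth regulators 6 rose in MIM156 (median 0.16) and 15 in Col-0. PRE1, a small helix-loop-helix protein that frees growth factors from their inhibitors, went from 0.849, 1.63 and 0.842 CPM to 6.31, 3.14 and 5.57 CPM (1.41 ± 0.27, adjusted p = 2.55e-05 by limma). The homeodomain gene HAT1 (0.55) and LNG1 (0.64), which acts in longitudinal growth, rose too. PRE5 (1.11), IBH1 (0.81) and HAT2 (0.66) rose with all libraries. PRE5 did not without 27 °C replicate 1 (0.73), IBH1 not without 21 °C replicate 1 (0.69) or 27 °C replicate 3 (0.70), and HAT2 not in 4 of 6 such fits. PIF5 and PIF7 changed by 0.03 and -0.76 and did not pass the test.

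Cell wall loosening genes had 4 of 19 xyloglucan endotransglucosylases and expansins higher and 1 lower in MIM156 (median 0.12). In Col-0 8 members of this list rose and 0 fell (median 0.68), and in pif457 3 rose and 2 fell (median 0.003). In MIM156 the values were as follows. XTH24 went from 163, 175 and 121 CPM to 841, 776 and 755 CPM (2.03 ± 0.23, limma adjusted p = 4.55e-08). EXPA8 went from 13.4, 12.4 and 12.3 CPM to 46.6, 47.8 and 48.8 CPM (1.52 ± 0.22). EXPA5 went from 24.3, 22.6 and 22.4 CPM to 62.5, 52.7 and 55.4 CPM (0.92). In pif457 EXPA5 was at 44.5 to 56.4 CPM at 21 °C and at 30.2 to 47.3 CPM at 27 °C, and its change in MIM156 was higher by 1.33 ± 0.21 (adjusted p = 6.33e-06 by limma). Outside the list, XTR6, another xyloglucan enzyme, went from 3.08, 3.14 and 1.96 CPM to 34.3, 28 and 26.8 CPM (2.88). XTH20 was the member that fell (-1.51), a call lost in 4 of 6 fits without a library, and of 18 brassinosteroid genes 0 passed the limma test in MIM156, 1 at an unadjusted p under 0.05 and 0 in edgeR or DESeq2.

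Iron homeostasis genes fell in part, 7 of 19 on the iron list with 0 higher (median -0.66) and 4 lower without 27 °C replicate 3. IRT1, the root iron transporter, was at 17, 29 and 28.7 CPM at 21 °C and 1.1, 1.54 and 1.69 CPM at 27 °C, the largest fall by the naming rule (-4.05 ± 0.90, limma adjusted p = 0.0036). FRO2, the root ferric reductase, was at 9.07, 16.1 and 8.33 CPM and 1.93, 1.91 and 2.64 CPM (-2.44), without passing the test. IRON MAN peptides signal iron shortage: IMA3 went from 5.94, 7.18 and 5.71 CPM to 2.14, 1.39 and 1.79 CPM (-1.94), and IMA1 from 0.583, 2.19 and 1.17 CPM to 0.0522, 0.309 and 0.348 CPM (-1.58). OPT3, which loads iron into phloem, fell from 133, 130 and 138 CPM to 68.5, 92.5 and 94.1 CPM (-1.02). NAS4, a nicotianamine synthase, fell by 1.08. In pif457 7 members of the list fell as well (median -0.73), IMA1 (-0.97), IMA2 (-1.07), IMA3 (-1.24), NAS4, OPT3 and BHLH100 among them. In Col-0 5 members of the list rose and 4 fell (median 0.004). IMA1 and IMA2 rose there, IMA1 from 1.86 to 2.60 CPM to 5.75 to 6.89 CPM and IMA2 from 2.23 to 3.57 CPM to 9.48 to 9.83 CPM. The change in MIM156 was lower for IMA1 (-2.66 ± 0.45, adjusted p = 0.00176 by limma), IMA2 (-2.70), IMA3 (-2.21) and the factor BHLH100 (-2.65). The change of the ferritin genes FER3 (0.88) and FER4 (1.02), whose products store iron, and of the shoot reductase FRO6 (1.27) was higher than in Col-0, where 0.712% of all tested genes were called higher. None of these genes rose in MIM156 itself, where FER3 changed by -0.45 and did not pass the test.

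Glucosinolates are defence compounds of the cabbage family, and their genes had 3 of 13 members lower and 1 higher. The list holds genes of the methionine-derived and of the indole branch. The members that fell, BCAT4, CYP83A1 and MAM1, belong to the methionine-derived branch. BCAT4, the first enzyme of chain elongation, was at 2.17, 2.62 and 2.1 CPM and then at 0.365, 0.103 and 0.398 CPM (-2.20 ± 0.41, limma adjusted p = 0.00141). CYP83A1 was at 9.07, 9.12 and 6.03 CPM and then at 3.91, 2.42 and 1.34 CPM (-1.91). Outside the list, CYP79F2 of the same pathway went from 3.61, 3.74 and 2.9 CPM to 1.25, 0.464 and 0.398 CPM (-2.12). In Col-0 CYP79F2 was at 2.08 to 6.57 CPM and then at 5.75 to 11.5 CPM, and the difference in change was -3.0 ± 0.60 (adjusted p = 0.00959 by limma). BCAT4 differed from Col-0 by -2.75, a call lost without Col-0 21 °C replicate 2 (-2.55) or MIM156 27 °C replicate 2 (-2.59). CYP83A1 differed by -2.54, lost in 8 of 12 such fits (-2.81 to -2.07). MAM1 (-1.52) fell and MYB34 (0.65), a regulator of the indole branch, rose with all libraries. MAM1 was lost in 4 of 6 fits without a library and MYB34 without 21 °C replicate 3 (0.53).

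Flavonoid genes fell as well, 6 of 17 with 0 higher (median -0.65), against 8 in Col-0 and 10 in pif457; 3 were called without 21 °C replicate 3, without 27 °C replicate 1 or without 27 °C replicate 2. MYB111, which activates flavonol synthesis, was at 2.33, 2.45 and 3.18 CPM and then at 0.939, 0.412 and 1.19 CPM (-1.62 ± 0.24, limma adjusted p = 0.000276). 4CL3 was at 8.12, 7.96 and 10.2 CPM and then at 2.56, 4.07 and 3.58 CPM (-1.61). MYBL2, a repressor of anthocyanin synthesis, was at 72, 74.3 and 63.6 CPM and then at 48.5, 54.8 and 45.9 CPM in MIM156 (-0.84, not past the test) but went from 6.2 to 8.06 CPM up to 41.9 to 50.7 CPM in pif457. The difference was -3.41 ± 0.33 (adjusted p = 1.65e-06 by limma).

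Jasmonate genes, of the wound and defence hormone, had 2 of 17 members lower and 0 higher, with any MIM156 library left out too. Over all tested genes 3.54% were lower and 8.57% higher. AOC2, an allene oxide cyclase of jasmonate synthesis, was at 16.8, 18.8 and 12.7 CPM and then at 5.53, 5.98 and 6.76 CPM (-1.68 ± 0.22, limma adjusted p = 6.61e-05). LOX2, a lipoxygenase of the same pathway, was at 32.3, 40.8 and 37.2 CPM and then at 19.5, 16.7 and 18.7 CPM (-1.34). VSP2, a jasmonate-induced storage protein, was at 0.817 to 1.78 CPM at 21 °C and 1.59 to 1.67 CPM at 27 °C in MIM156, with overlapping groups, and went from 2.14 to 3.32 CPM up to 14.9 to 31.8 CPM in Col-0. The change of VSP2 in MIM156 was lower than in Col-0 by 2.47 as a log2 difference (-2.47 ± 0.44, adjusted p = 0.00384 by limma).

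Starch and sugar genes had 6 of 25 members lower and 2 higher. The number higher was 0 without 27 °C replicate 2 or 27 °C replicate 3. It was 1 without 21 °C replicate 2 or 21 °C replicate 3, and 4 without 27 °C replicate 1. SEN1 was a member that rose (0.95), a call lost in 4 of 6 fits without a library. edgeR and DESeq2 each called 4 higher and 11 lower. GBSS1, the starch synthase that makes amylose, was at 62, 73.6 and 56 CPM and then at 34.9, 39.3 and 34.7 CPM (-1.16 ± 0.18, adjusted p = 0.000952 by limma). AMY3, an amylase of the chloroplast (-1.11), and ADG1, a subunit of ADP-glucose pyrophosphorylase (-0.98), fell with it. BAM3, the beta-amylase of starch breakdown at night and in the cold, was at 73.4, 79.3 and 60.8 CPM and then at 102, 142 and 129 CPM (0.44, not past the test). It went down in Col-0 from 173, 205 and 213 CPM to 101, 105 and 96.7 CPM and in pif457 from 390, 345 and 388 CPM to 174, 176 and 174 CPM. The change of BAM3 was higher in MIM156 by 1.67 ± 0.22 than in Col-0 (limma adjusted p = 4.26e-05) and by 1.54 ± 0.22 than in pif457, the only gene of the list above both. BAM3 overlaps other gene models, as does LHCA4.

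Cold, water deficit and abscisic acid genes had 3 of 20 members lower and 3 higher, where 3.54% and 8.57% of all tested genes were. KIN2, a small cold-induced protein, was at 14.8, 14.5 and 15.9 CPM and then at 2.5, 5.2 and 6.26 CPM (-2.03 ± 0.44, limma adjusted p = 0.00516). COR15B, a chloroplast protein of cold acclimation, was at 11.4, 7.74 and 9.73 CPM and then at 3.29, 3.19 and 1.99 CPM (-1.97). The third was COR78, another cold- and drought-induced gene (-1.51), not called without 21 °C replicate 2 or 27 °C replicate 1. Outside the list, AT4G30650, of a low-temperature and salt responsive family, went from 13.5, 16.4 and 18.7 CPM to 2.35, 1.96 and 2.04 CPM (-3.02). RAB18 and RD29B, which abscisic acid induces, rose: RAB18 from 5.78, 3.48 and 6.13 CPM to 12.7, 65 and 49.5 CPM (2.32) and RD29B from 7.64, 8.26 and 6.88 CPM to 19.7, 54.7 and 42.9 CPM (1.82). CBF2, a factor of the cold response, rose by 0.77, a call lost without 21 °C replicate 1, 21 °C replicate 2 or 27 °C replicate 3. In RAB18 and RD29B 27 °C replicate 1 was the lowest of the warm libraries, and both calls were lost without 27 °C replicate 2 (1.85 and 1.5), so that 1 gene of the list rose without it.

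Seed genes varied in the same way among the warm libraries. Seed storage proteins and late embryogenesis proteins accumulate in maturing seeds and are used up at germination, so that their RNA marks seed tissue or abscisic acid action in a seedling sample. The list took 0.00109, 0.00186 and 0.000781% of all reads at 21 °C and 0.00127, 0.0208 and 0.0128% at 27 °C. Its median change was 1.48, with 3 of 11 tested members higher, 1 without 21 °C replicate 1, 21 °C replicate 3, 27 °C replicate 2 or 27 °C replicate 3, and 9 without 27 °C replicate 1. CRU3, a storage protein, was at 0.265, 3.23 and 0.234 CPM and then at 0, 76.3 and 47.2 CPM, without passing the test. The oil body protein gene OLEO2 was at 0.477, 1.51 and 0.842 CPM and then at 5.32, 19.1 and 13.8 CPM (2.74 ± 0.58). Further genes outside the lists, among the 10 that rose most, were also lowest in 27 °C replicate 1 among the warm libraries. They were AT1G54870 (0.318, 0.817 and 0.748 CPM to 8.71, 24.8 and 18 CPM), AT1G04560 of the AWPM-19-like family (0.106, 0.344 and 0 CPM to 4.38, 14.9 and 9.49 CPM), the late embryogenesis gene M17 (0.265, 0.344 and 0 CPM to 1.93, 19.9 and 10.5 CPM) and PER1, a seed peroxiredoxin (1.43, 1.72 and 1.26 CPM to 13.2, 27.8 and 19.7 CPM, a change of 2.98 ± 0.40, adjusted p = 1.4e-06 by limma). AT1G68250 was at 0 CPM in the 3 libraries at 21 °C and at 0.939, 17.9 and 8.85 CPM at 27 °C, at least 64.8-fold higher by the mean against 3 reads per library. In pif457 the seed list had a median change of 1.34 with 3 members higher, and in Col-0 -0.54 with 1 higher, and 0 fell in either. The part of seed tissue in these rises was not tested.

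Of 23 clock genes, 3 differed in their change between MIM156 and Col-0, 2 higher and 1 lower, where 0.712% and 0.579% of all tested genes did. In MIM156 3 rose and 2 fell (median 0.20), where 8.57% and 3.54% of all tested genes did. With a single library left out, 1 rose in every fit but that without 21 °C replicate 1, where 2 did. RVE4, a Myb factor that activates evening genes, rose from 137, 134 and 104 CPM to 303, 276 and 261 CPM (0.81 ± 0.17, limma adjusted p = 7.26e-06). PRR5, a repressor of the morning loop, fell from 32, 29.7 and 17 CPM to 15.5, 13.8 and 12.9 CPM (-1.19). The blue-light receptor FKF1 fell from 19.1, 8.69 and 9.63 CPM to 6.21, 6.9 and 5.72 CPM (-1.21), a call lost without 21 °C replicate 1 (-0.91). LHY, the morning Myb repressor, was at 98.1, 126 and 83.1 CPM and then at 192, 177 and 165 CPM in MIM156 (0.46, not past the test). In Col-0 LHY was at 130, 82.9 and 102 CPM and then at 44.9, 53.2 and 55.5 CPM (-1.28), a difference of 1.74 ± 0.29 (adjusted p = 0.000697 by limma). RVE1, a relative that links the clock to auxin, differed by 1.08, and GI, an evening gene, by -1.34. RVE2, a Myb gene close to LHY, was not on the list but moved in the same manner. It went from 62.2, 59.2 and 44.6 CPM to 196, 137 and 138 CPM in MIM156 (1.13 ± 0.23), from 103, 125 and 161 CPM to 74, 57.7 and 82.6 CPM in Col-0 (-1.12) and from 165, 208 and 209 CPM to 80.5, 75.4 and 108 CPM in pif457 (-1.15). The groups are separate in each genotype, and the change in MIM156 was higher by 2.25 ± 0.33 than in Col-0 (limma adjusted p = 0.000282) and by 2.28 ± 0.33 than in pif457. Against pif457, 7 clock genes were lower, where 0.95% of all tested genes were. Among them PRR7 (-2.17) went from 9.03 to 18.8 CPM up to 63.4 to 85.6 CPM in pif457 and overlapped between temperatures in MIM156.

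Promoter windows of 30 bases show the G-box, CACGTG, which PIF and clock-linked basic helix-loop-helix and bZIP factors bind, and the evening element, AAAATATCT or AGATATTTT, which LHY and RVE factors bind. Both strands of the 250 bases before the gene start were searched. The G-box is in 6.99% of 21615 promoters, in 8 of 23 on the clock list (34.8%), and in 11.6% and 11.1% of those of genes higher and lower than in Col-0. The evening element is in 2.32% of all promoters, in 5.41% of those that fell in MIM156 and in 1.61% of those that rose. The motif is in capitals. IAA19 is read at chr3:5263919-5263948 on the plus strand, LHY at chr1:37934-37963 on the minus strand, RVE2 at chr5:14753234-14753263 on the minus strand, FKF1 at chr1:25508443-25508472 on the plus strand and PRR5 at chr5:8358714-8358743 on the minus strand.
IAA19: atcaaatgactcCACGTGtcgatattggat
LHY: ctacaatatcacCACGTGtcgatctgcgat
RVE2: gaagaaatcctcCACGTGtcattagcatct
FKF1: tgagtaggctAGATATTTTctcggaatatc
PRR5: gattttttctAGATATTTTcttttctccac

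Cell type markers moved with some of these groups. Root hair and root epidermis genes had a median change of -0.87 in MIM156, -0.60 in Col-0 and -1.12 in pif457, and their share of the reads of MIM156 was 0.0200% at 21 °C and 0.0122% at 27 °C. Of the list 1 of 16 passed the test, GL2, the homeodomain gene of non-hair cells and trichomes, at 87.7, 77.8 and 97.1 CPM and then at 52.4, 61.1 and 59.1 CPM (-0.95 ± 0.13, adjusted p = 0.000626 by limma). All 16 changed by between -1.48 and -0.38. IRT1 and FRO2 are expressed in that epidermis, and the part of its share in their fall was not tested. Stomatal lineage genes had 3 of 15 members lower and 0 higher, 1 of them without 21 °C replicate 1, while their share of reads was 0.0316% at 21 °C and 0.0322% at 27 °C. TMM, a receptor-like protein of stomatal patterning, fell from 43.3, 41.3 and 47 CPM to 30.8, 30.3 and 35.7 CPM (-0.79 ± 0.11), and SPCH (-1.09), which starts the lineage, and BASL (-1.22), which polarizes its divisions, passed the test with all libraries. SPCH was lost without 21 °C replicate 1 (-1.0) or 27 °C replicate 2 (-1.04) and BASL without 21 °C replicate 1 (-0.94), 27 °C replicate 1 (-1.19) or 27 °C replicate 3 (-1.12).

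Of 15 microRNA pathway genes 3 rose and 0 fell, with a median of 0.15, where 8.57% and 3.54% of all tested genes rose and fell. TGH, a G-patch protein that helps process primary microRNAs, rose from 16.2, 18.1 and 10.3 CPM to 34.1, 41.3 and 42.1 CPM (1.05 ± 0.17, limma adjusted p = 1.15e-06). DCL2, a Dicer of small interfering RNAs, rose from 18.7, 18.1 and 14 CPM to 38.7, 30.4 and 30.6 CPM (0.60). The third was AGO2 (0.63), which was lost without 21 °C replicate 3 (0.37) or 27 °C replicate 3 (0.58). DCL1, the Dicer of microRNAs, was at 59.5, 62.8 and 30.8 CPM and then at 73.8, 79.8 and 75.8 CPM (0.29), and its partner HYL1 changed by 0.40, neither past the test. Among 36 tested targets of other microRNAs the median change was -0.25. TCP4, a leaf and growth factor targeted by miR319, fell from 78.4, 96.7 and 82.2 CPM to 60, 49.9 and 55.6 CPM (-0.99 ± 0.18, adjusted p = 0.00874 by limma). CSD2 (-0.93, miR398) fell and MYB33 (0.50, miR159) rose, each with a call lost in 3 of 6 fits without a library. The phase change and flowering list, beside the SPL genes, had 1 of 12 higher and 1 lower, calls that not every fit without a library kept. On the lower side edgeR and DESeq2 called 5 and 6 of these genes and 9 of the targets of other microRNAs each.

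Gibberellin genes had 3 of 17 members higher and 1 lower, where 8.57% and 3.54% of all tested genes were. Without 21 °C replicate 2 or without 27 °C replicate 3, 1 member was higher. RGL1, a DELLA repressor, went from 7.21, 3.96 and 5.43 CPM to 13.1, 12.5 and 13.2 CPM (0.83 ± 0.18, limma adjusted p = 2.11e-05). GA3OX2, an enzyme of the last activating step, fell from 0.743, 0.731 and 1.12 CPM to 0, 0.0515 and 0.0994 CPM (-1.66 ± 0.34). Of 16 chaperones of the endoplasmic reticulum 2 passed the test, ERDJ3A (0.67) and CRT3 (0.37), both lost in at least 4 of 6 fits without a library. Core hypoxia genes (16 tested), salicylic acid and immune genes (12), phosphate starvation genes (12) and cell division genes (21) had 0 called members in the limma fit, with median changes of 0.15, -0.27, -0.13 and -0.23. At an unadjusted p under 0.05 with both scalings these lists had 2, 0, 1 and 2 members, in edgeR 0, 2, 0 and 5 and in DESeq2 0, 2, 1 and 5. Beside these and the auxin receptor list, where a list above had 0 calls in one direction, edgeR and DESeq2 had 0 there too, except for 4 auxin synthesis genes, 2 auxin transport genes and 2 PIF and shade regulators that both called lower and 1 chaperone of the endoplasmic reticulum that DESeq2 did. In limma at an unadjusted p under 0.05 the exceptions, beside the brassinosteroid gene, were 1 flavonoid gene and 1 iron gene on the higher side.

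**Figure D4:**
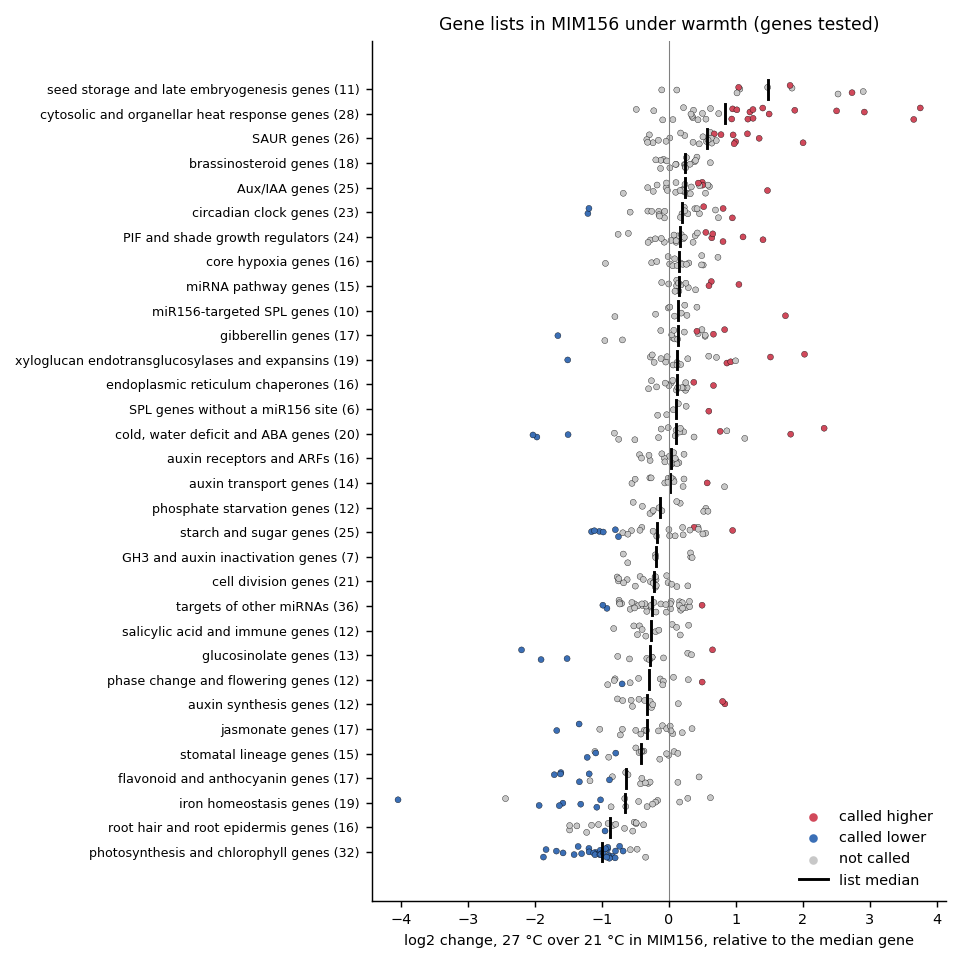
Log2 change with warmth in MIM156, relative to the median gene, of each tested member of the 32 gene lists; a point is a gene, its colour shows whether it was called higher, lower or neither, and the black line is the list's median. The photosynthesis list lies almost wholly to the left at a median of -1.0 and the heat list to the right at 0.84.

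The change with warmth was next compared between genotypes, as the difference of 2 log2 changes, to ask which responses differ when miR156 is sequestered. In MIM156 against Col-0, 155 genes (0.712%) changed in the higher direction and 126 (0.579%) in the lower. Without Col-0 27 °C replicate 2 these were 65 and 71, and without MIM156 21 °C replicate 2 they were 246 and 199. Against pif457 195 genes (0.895%) were higher and 207 (0.95%) lower, and these fits without a library gave 125 to 206 and 144 to 201. With the deposited totals alone 88.2% of the calls against pif457 were higher and with median-of-ratios scaling 35.8% were.

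On the lower side, some genes went up with warmth in Col-0 and not in MIM156. PME61, a pectin methylesterase gene, was at 0.424, 0.946 and 0.234 CPM and then at 0.574, 0.515 and 1.39 CPM in MIM156. In Col-0 PME61 went from 0.697, 0.595 and 0.306 CPM to 8.23, 9.3 and 7.42 CPM (difference -2.84 ± 0.41, adjusted p = 0.000342 by limma). AT4G17470, an alpha/beta-hydrolase gene, differed by -3.34 and AT1G49570, a peroxidase gene, by -3.26. PME61, AT4G17470 and AT1G49570 changed by -0.21, -0.25 and 0.69 in pif457 and were not called there. The largest difference was that of the uncharacterized AT2G14247, which went from 4.3, 3.66 and 3.41 CPM to 0.209, 0.361 and 0.497 CPM in MIM156 (-2.69). In Col-0 it went from 8.32, 7.59 and 11.7 CPM to 19.7, 19.1 and 26.9 CPM, opposite directions with no overlap in either (-3.64 ± 0.45, limma adjusted p = 6.78e-05). AT2G29670, a tetratricopeptide repeat protein gene, likewise went from 45.7, 53.5 and 34.6 CPM down to 21.6, 19.2 and 20.7 CPM in MIM156 and from 14.7, 10.4 and 9.65 CPM up to 41.4, 52.1 and 41.2 CPM in pif457 (-3.36 ± 0.29, adjusted p = 1.58e-07 by limma).

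On the higher side, AT4G19430 led both comparisons, at 3.97 ± 0.34 against Col-0 and 3.82 ± 0.34 against pif457, on levels of at most 0.139 CPM in those genotypes, and edgeR and DESeq2 did not call either difference. CSLB03, a cellulose synthase-like gene, went from 16.3, 16.7 and 16.9 CPM to 39.4, 45.6 and 38.6 CPM in MIM156. It went from 19.8, 28 and 31.8 CPM to 15.1, 14.3 and 16.3 CPM in Col-0 (1.95 ± 0.33, limma adjusted p = 0.00102). AT1G29720, a leucine-rich repeat kinase gene, was at 25.5, 33 and 22.6 CPM and then at 13.8, 15.9 and 16.2 CPM in MIM156. Its Col-0 libraries were at 9.42 to 12.1 CPM and then at 0.232 to 1.1 CPM. It fell in Col-0 (-3.51) and did not pass the test in MIM156 (-1.14), a difference of 2.36. GH9B8, an endoglucanase gene, rose by 1.05 in MIM156 and fell by 1.05 in pif457 (2.1 ± 0.47). AT2G07213 differed from Col-0 by 2.1 in limma, with Col-0 at 0 CPM in its 3 libraries at 21 °C, and by -1.67 in edgeR and -0.826 in DESeq2, so its direction rests on the tool.

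**Figure D5:**
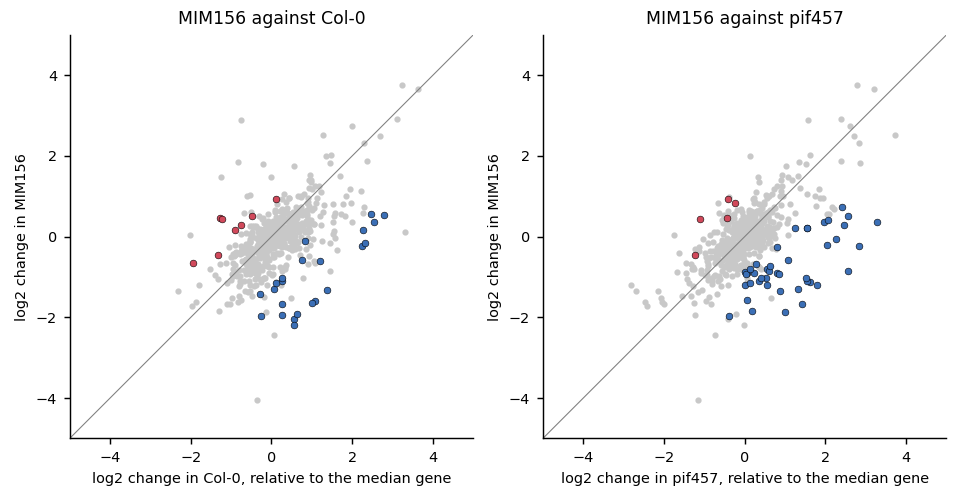
Log2 change with warmth of the genes on the lists, relative to the median gene, in MIM156 on the vertical axis against Col-0 (left) and pif457 (right) on the horizontal axis; red points are genes called higher in MIM156 by the difference, blue points genes called lower, and the grey line marks equal changes. IAA19, IAA29 and HSP17.6C lie below the line against Col-0 and RVE1, LHY and BAM3 above it; most photosynthesis genes lie below it against pif457.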

How the data were processed

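Poly-A RNA of whole seedlings was sequenced from 10 groups of 3 biological replicates, as the study states. The deposited values are CPM (reads per 1000000 in genes), although the sheet is named FPKM: they are whole multiples of 1 read in 100% of values at a tolerance of 0.001. Per the study and the submitters' processing notes, the authors used STAR 2.7.7a for mapping, featureCounts 2.0.1 for counting per Araport11 gene and DESeq2 1.35.0 for tests; the sources used here do not give the strandedness. Sequences and coordinates came from RefSeq TAIR10.1, which matched 25076 of 25300 genes.

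Here limma 3.58.1 (R 4.3.3, trend and robust options) was fitted to log2(CPM + 0.5) with a mean per group over 30 libraries; fold changes on this scale understate low genes. Genes needed 1 CPM in 3 libraries, and an adjusted p of at most 0.05 with both scalings. No replicate, GC or batch term was used. Values after ± are limma's standard errors or SDs between replicates, and floors of 3 reads cover counting error only. The 32 lists (617 genes, 8 not in the table and 48 not tested) and the members were chosen with earlier results of these data known. Named genes were those the study's genotypes and text name, up to 4 called members per list without overlap, the 10 genes that rose most and the 10 that fell most, at 5 CPM or more on average in the higher group, and per comparison of genotypes the 5 largest differences each way and up to 2 called members per list; other genes given are members of the lists, with values. Alternatives were other scalings, pseudocounts of 0.1 and 2, filters, the compared groups alone, a replicate block, each library left out, limma without trend and robust options, a 2-fold minimum, and edgeR 4.0.16 and DESeq2 1.42.0 on the recovered reads. The scripts were tested on simulated data.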

Additional observations from a re-analysis of the deposited data

Results flagged for a closer look

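Each result here was singled out because its change with warmth differed between MIM156 and another genotype by the test of the difference itself (limma on all 30 libraries, adjusted over 21780 genes, called with both scalings). Values are differences of log2 changes, MIM156 minus the other genotype.

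Against Col-0, 155 genes had a more positive and 126 a more negative response in MIM156. Named genes with a more negative response were the auxin-linked IAA19 (-2.25), IAA29 (-2.11), SAUR19 (-1.91) and GH3.3 (-1.83), the cell wall genes PME61 (-2.84) and EXPA4 (-0.94), the small heat shock genes HSP17.6II (-2.48) and HSP17.6C (-2.20), the iron genes IMA2 (-2.70) and IMA1 (-2.66), and the glucosinolate genes CYP79F2 (-3.0), BCAT4 (-2.75) and CYP83A1 (-2.54). Further ones were KIN2 (-2.59) and COR15B (-1.71) of cold acclimation, VSP2 (-2.47) of the jasmonate response, LHCB1.2 (-1.96) and LHCA4 (-1.37) of light harvesting, GBSS1 (-1.28) of starch synthesis, the clock gene GI (-1.34), and AT2G14247 (-3.64), AT4G17470 (-3.34) and AT1G49570 (-3.26). A more positive response was found for AT4G19430 (3.97), AT1G29720 (2.36), RVE2 (2.25), AT2G07213 (2.1), CSLB03 (1.95), LHY (1.74), BAM3 (1.67) and EXPA5 (0.82). The differences of EXPA4, EXPA5, COR15B, KIN2, SAUR19 and CYP83A1 were each lost in at least 7 of 12 fits without a library. Their ranges were -1.06 to -0.76, 0.72 to 0.91, -2.12 to -1.48, -3.02 to -2.08, -2.12 to -1.61 and -2.81 to -2.07. Neither edgeR nor DESeq2 called the differences of AT4G19430, HSP17.6C, HSP17.6II and SAUR19 from Col-0. Those of IAA29 and EXPA5 were not called by edgeR. AT2G07213 turned to -1.67 in edgeR and -0.826 in DESeq2.

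Against pif457, 195 genes had a more positive and 207 a more negative response. On the negative side were LHB1B1 (-3.50), LHCB1.2 (-3.10) and LHCB2.2 (-2.98) of light harvesting, MYBL2 (-3.41), AT2G29670 (-3.36), AT4G22495 and AT4G22505, which overlap and had equal values (-3.31 each), HSP17.6II (-3.07), HSP17.6C (-2.93), the clock genes PRR9 (-2.32), PRR7 (-2.17) and GI (-1.65), the B-box gene BBX28 (-2.25), COR15B (-1.58), the floral repressor gene SNZ (-1.36) and the sugar transporter gene STP1 (-1.33). PIF4 (-1.62) is mutated in pif457, where its transcript is not that of a working gene. The positive side held AT4G19430 (3.82), AT5G37950 (2.61), AT2G07213 (2.43), RVE2 (2.28), GH9B8 (2.1), BAM3 (1.54), EXPA5 (1.33), RGL1 (1.07), C4H (0.89) and FER3 (0.77). Of 12 fits without a library, the call of COR15B was lost in 11 (-1.75 to -1.40), that of SNZ in 9 (-1.59 to -1.10), those of C4H (0.70 to 0.99) and FER3 (0.67 to 0.87) in 8 each, that of PRR9 in 4 (-2.75 to -1.76) and that of RGL1 in 1 (0.83 to 1.22). Neither edgeR nor DESeq2 called the differences of AT4G19430, AT5G37950, AT2G07213, HSP17.6C and HSP17.6II from pif457. Those of C4H, COR15B and FER3 were not called by edgeR.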

How the results depend on the processing

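Scaling moved the counts of higher and of lower genes. In MIM156 1867 genes rose and 770 fell; with the deposited totals alone 7454 rose, with median-of-ratios scaling alone 2123 fell, with TMM scaling alone 2029, and with totals over nuclear genes outside the 50 most read 1401. edgeR gave 2227 lower and DESeq2 2418. A 2-fold minimum left 384 and 414, the 2-fold rule with unadjusted p under 0.01 in DESeq2 gave 584 higher, and fitting the compared groups alone gave 1209 higher. Without a single library 1120 to 1817 were higher and 604 to 702 lower. Against Col-0 (155 higher, 126 lower) TMM gave 201 lower, the compared groups alone 40 and 64, a 2-fold minimum 61 higher, DESeq2 265 and 309 and its 2-fold rule 384 lower; fits without a library gave 65 to 246 and 71 to 199. Against pif457 (195 and 207) the deposited totals gave 1576 higher and a 2-fold minimum 101, while median-of-ratios gave 349 lower, TMM 368, nuclear totals 317, edgeR 391, DESeq2 502 and its 2-fold rule 374; fits without a library gave 125 to 206 and 144 to 201. AT2G07213 against Col-0 turned from 2.1 to -1.67 in edgeR and -0.826 in DESeq2, also under its 2-fold rule; the cause was not tested.

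Same-numbered MIM156 libraries correlated at -0.074, -0.065 and 0.13 in their deviations from the group means, where every pair had to exceed 0.1 for the numbers to be taken as pairs, and not every MIM156 library correlated best with its own number. The same correlations were 0.14, 0.168 and 0.142 in Col-0, where every library did so, and 0.408, 0.051 and 0.293 in pif457. Between MIM156 and Col-0 they were 0.231, 0.233 and 0.079 at 21 °C and 0.104, 0.106 and 0.05 at 27 °C. The numbers were not taken to pair the samples of these comparisons, and the block is given as a hint from the data. With the replicate number as a block 2253 genes rose and 893 fell in MIM156, 285 and 225 differed from Col-0 and 370 and 280 from pif457. Of 104 named genes called in MIM156, 69 were called in every fit without a library and 84 under all other settings but the 2-fold rules. Depth limits genes near 0.111 to 0.163 CPM, the value of 3 reads.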

Other observations

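Values of some of these genes in hyl1-2 and in dcl1-24/hyl1-2, which carries a dominant allele of DCL1 in hyl1-2, belong to no comparison above and were not tested here. SPL3 was at 2.04, 1.9 and 1.82 CPM at 21 °C and 10.7, 15.3 and 9.24 CPM at 27 °C in hyl1-2, and at 0.842, 1.09 and 1.7 CPM and 3.07, 2.72 and 3.3 CPM in dcl1-24/hyl1-2. HSP17.6C, low in warm MIM156, was at 0.0976, 0.274 and 0.613 CPM in warm hyl1-2 and at 1.01, 0.474 and 0.446 CPM in warm dcl1-24/hyl1-2, while HSP70-4 reached 137, 114 and 117 CPM and 267, 228 and 209 CPM. IAA19 was at 9.86, 13.7 and 11.3 CPM in warm hyl1-2 and at 17.3, 27.8 and 16.3 CPM in warm dcl1-24/hyl1-2, above the 1.72, 2.94 and 4.03 CPM of warm MIM156. RVE2 was at 61.1, 94.5 and 88.8 CPM and then at 55.2, 41.4 and 53.2 CPM in hyl1-2, with its warm libraries below the cool ones.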
